A study of Mus musculus with 18 samples.

Results

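The cells described here are a rare group of fibroblasts of mouse dorsal dermis that carried the transcripts of Cthrc1 together with Tnmd or Cyp2f2. They were chosen by their own UMI counts (UMIs are the molecule counts of droplet sequencing). A fibroblast had 850 to 7800 detected genes, under 13% mitochondrial UMIs, at least 20 UMIs of Col1a1, Col1a2 and Col3a1 together, at least 1 UMI of Pdgfra and none of Ptprc. A member also had at least 2 UMIs of Cthrc1 and at least 2 UMIs of Tnmd or of Cyp2f2. The rule found 445 members among 12119 fibroblasts, of 16877 cells that passed the filter on genes and mitochondrial UMIs and 23990 deposited barcodes. The other 11674 fibroblasts served for comparison, within the same library.

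The study collected back skin every 4 h over 3 days from 18 wild-type male C57BL/6J mice, about 54 days old, with resting hair follicles, under 12 h of light and 12 h of dark. Each of the 6 zeitgeber times (ZT, hours after lights on; ZT2, ZT6, ZT10, ZT14, ZT18 and ZT22) had 3 mice, and each mouse gave 1 library, so n counts mice. All groups were wild type and untreated as far as the labels say, and differed in zeitgeber time. Hair was removed and fat scraped off before a 12 mm punch was digested with collagenase and live cells were sorted, which limits the cells to those that leave the matrix intact. The replicate number is the day of collection. Deposited UMIs per library ran from 4850221 to 40827442, and members per library from 6 to 54.

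Fibroblasts make and remodel the collagen network of the dermis, and skin holds several kinds that differ in the matrix genes and signals they express. Cthrc1 encodes a secreted protein with a short collagen-like stretch that is best known from fibroblasts in injured or remodelling tissue. Tnmd encodes tenomodulin, a membrane glycoprotein best known from tendon and ligament. Cyp2f2 is a cytochrome P450 enzyme best known from the club cells of the airway.

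Some barcode sequences occurred in more than 1 library. ZT6 replicate 2 and ZT10 replicate 3 had 89 barcode sequences in common. All 89 were cells that passed the filter in ZT10 replicate 3, where 12 of the 17 members were among them, and none passed it in ZT6 replicate 2. No barcode was a member in more than 1 library. Over all libraries 164 of 23824 distinct sequences occurred more than once. Counts of rhythmic genes are therefore also given without each of these 2 libraries.

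The counts that chose the cells are a description and were not tested. The median member held 14 UMIs of Cthrc1, 11 of Tnmd and 4 of Cyp2f2. Both Tnmd and Cyp2f2 reached 2 UMIs in 224 members, Tnmd alone in 133 and Cyp2f2 alone in 88. In 15 libraries with at least 10 members (424 members), Cthrc1 ran from 455 to 1037 CPM (UMIs of a gene per 1000000 UMIs of its cell group in the library) with a median of 829 in the members, against 3.31 to 84.7 in the other fibroblasts. Tnmd ran from 240.0 to 528 CPM in the members and from 2.88 to 17.8 in the others. Cyp2f2 ran from 88.6 to 339 CPM in the members and from 4.25 to 46.8 in the others. In 2963 cells with Ptprc, no Pdgfra and fewer than 20 collagen UMIs (median 11369 UMIs), which should lack these genes, Cthrc1 was found in 0.641%, Tnmd in 0.371% and Cyp2f2 in 0.337%. The share of the other fibroblasts (median 21965 UMIs) with at least 1 UMI was 10.3% for Cthrc1, 2.90% for Tnmd and 5.06% for Cyp2f2.

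Cells just inside and just outside the rule were compared by their levels of Ctsk and Col15a1. The 47 members with exactly 2 UMIs of Cthrc1 had 1351 CPM of Ctsk and 300.0 CPM of Col15a1. The 67 fibroblasts with 1 UMI of Cthrc1 and enough Tnmd or Cyp2f2 had 1154 CPM of Ctsk and 223 CPM of Col15a1. The 14 members in which the higher of Tnmd and Cyp2f2 was at 2 UMIs had 1996 and 349 CPM, and the 43 fibroblasts with enough Cthrc1 but only 1 UMI of Tnmd or Cyp2f2 had 1558 and 154 CPM. The 440 fibroblasts with no UMI of Cthrc1 and at least 2 of Tnmd or Cyp2f2 had 811 CPM of Ctsk and 211 CPM of Col15a1. The 479 fibroblasts with at least 2 UMIs of Cthrc1 and none of Tnmd or Cyp2f2 had 385 CPM of Ctsk and 46.1 CPM of Col15a1. The 9792 fibroblasts with none of the 3 transcripts had 240.0 and 15.6 CPM. The 313 members with at least 5 UMIs on each side of the rule had 3308 and 387 CPM.

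Members lay close to each other when the genes of the rule were left out. Fibroblasts were placed by 30 principal components of 2000 variable genes that excluded the 8 rule genes. Of the 15 nearest neighbours of a member, 75.9% were members on average, against 1.21% for the other fibroblasts. Of the member neighbours of members, 14.5% came from the same library. At a Leiden resolution of 0.8, 401 of the 445 members (90.1%) fell into 1 cluster of 718 cells with cells from all 18 libraries, with Gdf15, Icam1, Tnfaip6, Rgcc, Ndufa4l2, Thbs1, Pltp, C6 and Ctsk among its leading genes. A further 26 members fell into a cluster led by Cilp, Mgp, Mfap4, Thbs4 and Fmod, and 15 into a cluster led by Apoe, Steap4 and Cxcl14. Of the 317 cells of the first cluster that were not members, 117 had a UMI of Cthrc1, 195 had one of Tnmd or Cyp2f2 and 72 had none of the 3. Their median depth was 18064 UMIs, below the 31255 of the members. Cthrc1 was also present, at 174 CPM, in a cluster of 181 cells led by the cell-cycle genes Top2a and Mki67, where Tnmd was at 0.150 CPM and which held no member.

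The share of members among fibroblasts showed no 24 h rhythm that passed the test, and mice of one ZT differed widely. It was 3.11% ± 3.00 (SD, n = 3 mice) at ZT2, 5.68% ± 3.90 at ZT6, 6.57% ± 3.34 at ZT10, 2.64% ± 1.15 at ZT14, 3.94% ± 2.32 at ZT18 and 4.73% ± 0.666 at ZT22. Single libraries ran from 1.28% (exact 95% interval 0.473% to 2.78%, ZT2 replicate 2) to 10.3% (7.75% to 13.3%, ZT10 replicate 1). These intervals cover counting error only. All 3 ZT14 libraries (1.52% to 3.817%) lay below every ZT10 library (3.820% to 10.3%) and every ZT22 library (3.996% to 5.29%). All other pairs of ZT groups overlapped. A 24 h cosine accounted for 0.0820 of the variance between the 18 libraries, with p = 0.529 in a permutation test of 100000 reassignments. Thinned to 10000 UMIs per fibroblast, which left out 1047 shallower fibroblasts, 320 cells met the rule and the share was 3.53% on average against 4.44% unthinned, with a permutation p of 0.603. Without fibroblasts above the 95th percentile of UMIs the share was 2.77% (permutation p 0.276), and at ZT18 it was 1.58%. The plot of the share by library shows the spread within each ZT. A share after digestion and sorting counts cells that were recovered, and cannot be told apart from a difference in release from the tissue.

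**Figure D1:**
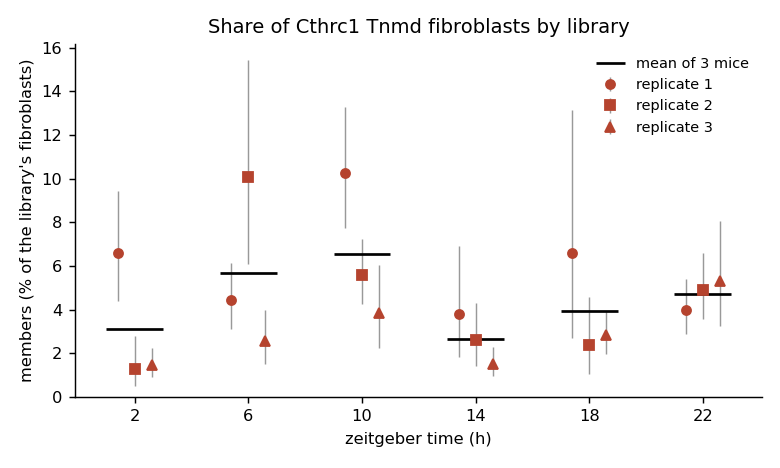
Members as percent of each library's fibroblasts (y) by zeitgeber time in h (x), 1 point per mouse with its exact 95% binomial interval and a black bar for the mean of 3 mice. Mice of one ZT are spread widely except at ZT22, and the ZT means lie between 2.64% and 6.57%.

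Cthrc1, Tnmd and Cyp2f2 summed over all fibroblasts also showed no 24 h rhythm that passed the test. In a fit of a 24 h cosine and sine to the summed UMIs of the 18 libraries (edgeR quasi-likelihood, Benjamini-Hochberg adjustment over 12388 genes), adjusted p was 0.449 for Cthrc1, 0.765 for Tnmd and 0.463 for Cyp2f2, while 13.7% of genes were called. A p that misses the threshold does not show that the levels were constant.

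Genes outside the rule that had been given as markers of the group were higher in the members than in the pooled other fibroblasts. These levels come from the same cells the rule chose, so they are a description with no test. Ctsk, which encodes the collagen-degrading protease cathepsin K, ran from 1361 to 4077 CPM in the members with a median of 2954, and from 242 to 426 CPM in the other fibroblasts with a median of 282. The groups did not overlap. Col15a1, a collagen chain of the basement membrane zone, ran from 230.3 to 442 CPM in the members and from 15.8 to 68.3 in the others, again without overlap. Ptx3, a soluble pattern recognition protein, ran from 97.7 to 1375 CPM in the members and from 22.7 to 299 in the others. It was higher in 14 of 15 libraries and lower in ZT14 replicate 1, the library with the fewest members in the fits. Ptx3 was seen in 48.3% of members, against 96.9% for Col15a1 and 100% for Ctsk, the fewest of the 3. Thinned to 10000 UMIs the shares were 40.3%, 89.4% and 99.8% of members, and 13.96%, 10.4% and 85.5% of the other fibroblasts. In the cells with Ptprc they were 0.780%, 0.420% and 4.02%. Other clusters of fibroblasts also carried these transcripts: Ptx3 was at 561 CPM in a cluster without members led by Cxcl1 and Ptgs2, against 913 CPM in the cluster with most members, and Col15a1 was at 202 and 221 CPM in the clusters led by Cilp and by Apoe, which held 26 and 15 members, against 347 CPM.

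**Figure D2:**
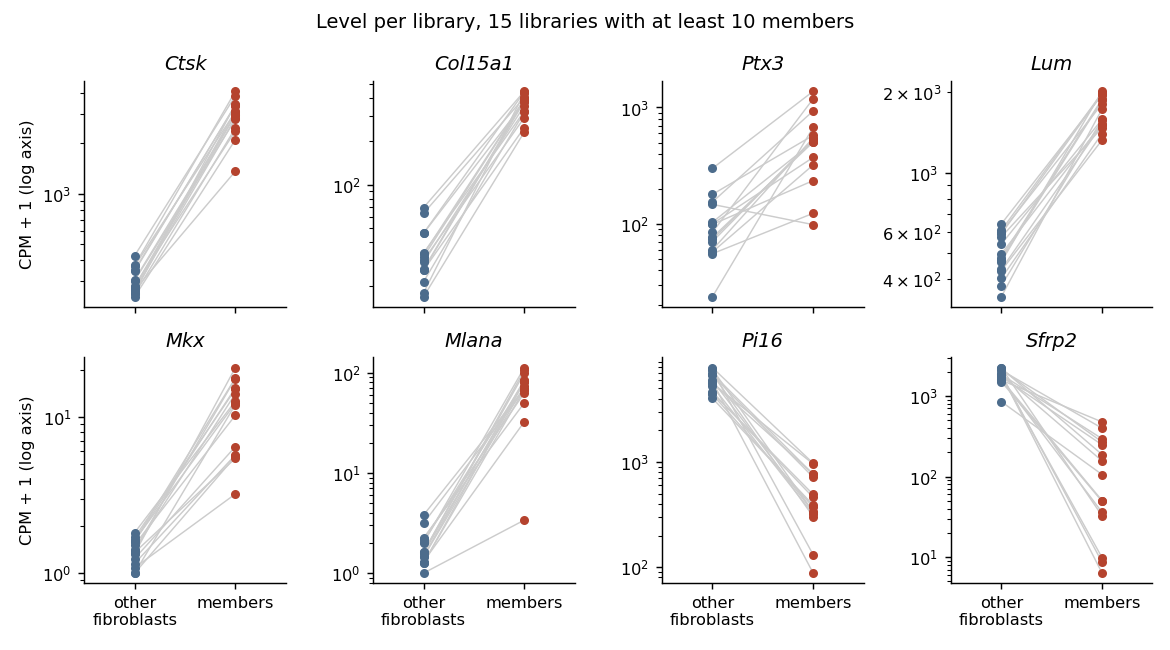
CPM + 1 on a log axis (y) of 8 genes in the other fibroblasts and the members (x), 1 pair of points joined by a line for each of 15 libraries. Ctsk, Col15a1, Lum and Mkx are higher in the members of every library, and Pi16 and Sfrp2 lower.

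The comparison over all genes needs its background, because collagens took a large part of the members' UMIs. Col1a1, Col1a2 and Col3a1 took from 13.6% to 30.04% of the UMIs of members and from 4.24% to 8.87% of those of the other fibroblasts. Of 9796 genes with a mean of at least 5 CPM in either group, 502 were higher in the members in all 15 libraries (5.12%) and 2707 were lower in all (27.6%). The median gene differed by -0.50 (log2 of CPM + 1, members minus other fibroblasts). With the 3 collagens left out of the totals the counts became 695 higher and 1631 lower and the median -0.29, so a difference near -0.50 lies at the middle of all genes. Members were also deeper than the other fibroblasts in every library, with a median per library of 22568 to 53279 UMIs against 18645 to 31987. With other fibroblasts of like depth the counts were 515 and 2750, and without fibroblasts above the 95th percentile of UMIs they were 325 and 1293.

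The genes that stood highest in the members came from several functions. Mlana, best known as a melanosome protein, was at 70.6 CPM ± 27.9 (SD, n = 15) in the members and 0.866 ± 0.756 in the others, a median log2 difference of 5.66. It ran from 2.38 to 111 CPM in the members, and was found in 51.9% of members and 0.737% of other fibroblasts. Of the other melanocyte markers, Pmel reached at most 3.31 CPM in the members of any library and Dct was at 0. Ndufa4l2, a mitochondrial protein known from low oxygen, was at 130.2 ± 43.1 against 4.96 ± 4.35 CPM (log2 difference 4.73). C1qtnf3, a secreted C1q-like protein, was at 195 ± 111 against 12.2 ± 7.32 CPM (4.17), and the phospholipid transfer protein gene Pltp at 264 ± 97.1 against 15.7 ± 4.37 CPM (4.05). A UMI of Pltp was also found in 71.7% of the cells with Ptprc. Also among the 15 highest were Rgcc, Sowahc, Col15a1, Ctsk, Sparcl1, Tent5c, the adhesion receptor gene Icam1, the guidance ligand gene Slit2, Serpina3n and Csrnp1, with differences from 3.01 to 4.03.

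The 10 lowest genes were found in 1.35% to 18.4% of the members. Igfbp4, the gene with the highest share, which encodes an insulin-like growth factor binding protein, was at 68.7 ± 91.3 CPM in the members and 1605 ± 271 in the others, a median log2 difference of -5.96. Aldh1a3, an enzyme that makes retinoic acid, was at 9.41 ± 10.9 against 328 ± 83.6 CPM (-5.79), and the steroid-metabolising Akr1c18 at 2.90 ± 3.85 against 238 ± 31.0 CPM (-6.31). Krtdap and Dmkn, which encode secreted proteins best known from keratinocytes, were found in 33.1% and 26.2% of the other fibroblasts but in 2.02% and 1.35% of the members. Chst1, Efhd1, Sema3e, Bmp3 and Itgb7 completed the set, between -5.56 and -6.39. The plot of the highest and lowest genes shows that each lay on one side of 0 in every library.

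**Figure D3:**
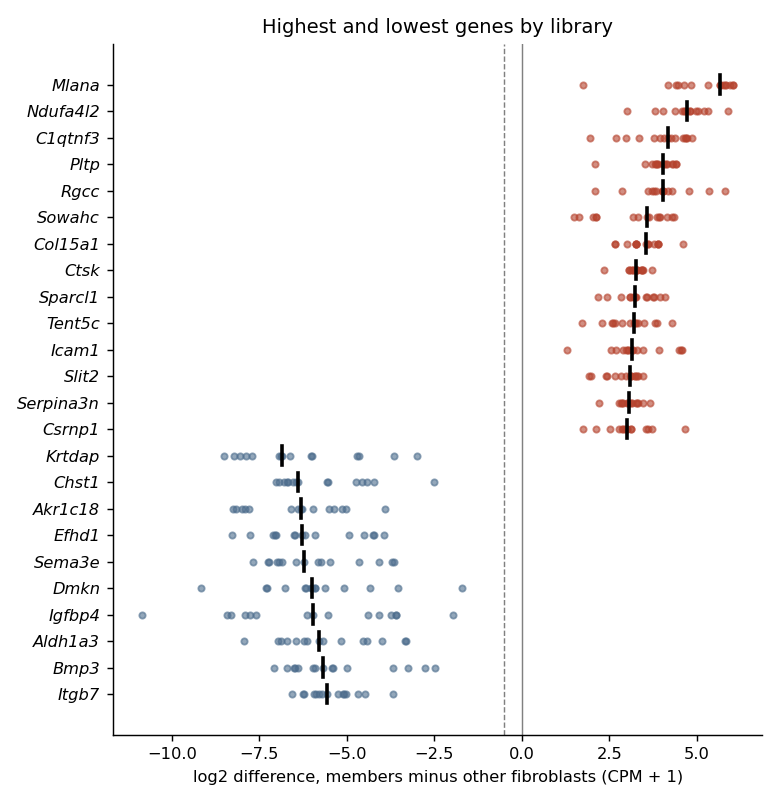
Log2 difference of CPM + 1, members minus other fibroblasts (x), for 14 of the 15 highest and the 10 lowest genes (y); points are 15 libraries, black bars medians, and the dashed line is the median of all genes at -0.50. Points of the highest genes lie right of 0 and of the lowest left of it.

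Counts of the gene lists are given against the 5.12% of all genes that were higher and the 27.6% that were lower in all libraries, and a share near these is not read as a result about the list. Of 16 collagen chains at 5 CPM or more (4 of the list of 20 were below), 6 were higher in all libraries and none lower, with a median of 0.28 over the list. The list left out the 3 collagens of the rule, Col1a1, Col1a2 and Col3a1. Within it, Col15a1 led with 3.56, followed by the basement membrane chains Col4a2 (1.42) and Col4a1 (0.86). Col12a1 (-1.85) and Col6a5 (-1.02) lay at the other end with mixed signs. Of 23 genes for small proteoglycans and elastic fibres, 10 were higher in all libraries, 6 lower and the median was 0.06. Mfap4 (2.50) and the proteoglycan genes Bgn (2.29) and Lum (1.74) were higher, and Fbn2 (2.21) was higher while its paralogue Fbn1 (-1.20) was lower. Mfap5, a microfibril protein gene, lay at the far end with 267 against 2088 CPM (-3.29), next to Emilin2 (-2.68). Of 21 proteases and inhibitors, 7 were higher in all and 5 lower, with a median of 0.25. The lower counts of both lists were near the 27.6% of all genes. Beside Ctsk (3.27), the stromelysin gene Mmp3 (1.80) and the membrane protease gene Mmp14 (1.33) were higher, as was the inhibitor gene Timp1 (1.50). The aggrecanase gene Adamts5 (-1.53) was lower, and Mmp23 (-0.65) lay close to the median of all genes at -0.50.

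Of 14 measured members of the list of 18 genes of activated fibroblasts, 4 were higher in all libraries and 3 lower, with a median of -0.54, where 5.12% of all genes were higher, 27.6% lower and the median was -0.50. The collagen cross-linking enzyme gene Lox ran from 603 to 1362 CPM in the members and from 104 to 283 in the others (2.28), and Adam12 (2.30), Runx1 (2.20) and the matricellular gene Postn (1.10) were higher too. Fn1, which encodes fibronectin, was lower at 1805 against 5608 CPM (-1.64), as were Loxl1 (-1.19) and Sulf1 (-0.94). The contractile genes Acta2 and Tagln, at 0.43 and 1.09 CPM, and Lrrc15, at 0.43 CPM, were near 0 in the members. These are defining transcripts of myofibroblasts and activated fibroblasts.

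Tenomodulin was not accompanied by the full set of tendon genes. Of 12 measured members of the tendon and ligament list of 19, 5 were higher in all libraries and none lower, with a median of 0.73. Mkx, a transcription factor of tendon, ran from 2.21 to 19.6 CPM in the members and from 0 to 0.815 in the others (2.91), and Cpxm2 was at 2.76. Scx, the defining transcription factor of tendon cells, was at 0.08 CPM in the members and 0.14 in the others, and Comp and Chad were at 0 in the members. Thbs4, Fmod and Cilp had higher means but lower medians in the members: Thbs4 was at 0 in the median library and at 304 CPM in the highest. Of the 445 members, those with at least 2 UMIs of any of these 3 genes numbered from 0 to 11 per library. Without them the median difference of Mkx was 2.76. Thbs4 (-2.41) and Ccn3 (-1.40) were the lowest of the list.

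Of 24 measured members of the Wnt, BMP and TGF-beta list of 31, 5 were higher in all libraries and 7 lower, with a median of -1.06, and the lower count was near the 27.6% of all genes. The secreted protein gene Dkk3 (3.30) and the TGF-beta-induced gene Tgfbi (2.38) were highest, and Bmp3 (-5.69) and the Wnt ligand gene Wnt2 (-5.18) lowest. Of 16 measured humoral innate genes of 18, 2 were higher in all libraries and 6 lower, with a median of -0.22. The chemokine gene Cxcl12 (3.00) and Ptx3 (2.48) were highest. Cxcl12 ran from 326 to 1328 CPM in the members and from 57.6 to 112 in the others. Ccl11 (-2.76) and Il33 (-2.67) were lowest, and complement C3 was at 624 against 2925 CPM (-2.41).

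Of 17 measured genes of oxidative and retinoid metabolism among 20, 6 were higher in all libraries and 5 lower, with a median of -0.16, where 5.12% and 27.6% of all genes were. The oxysterol hydroxylase gene Cyp7b1 (3.34) and Cyp4b1 (2.10) led, Cyp1b1 (2.05) and the retinoic acid degrading Cyp26b1 (1.74) followed, and Akr1c18 and Aldh1a3 were lowest. None of the 5 measured adipogenic genes of 8 had 1 sign in all libraries. Their median was 0.54, Pparg (2.47) and Cd36 (1.92) were highest, Zfp423 (0.31) and Cebpa (-0.25) lowest, and Adipoq and Plin1 were at 0 in the members. Of 23 measured markers of other dermal fibroblast groups among 28, none was higher in all libraries and 15 were lower, with a median of -2.39. Pi16, a marker of adventitial and reticular fibroblasts, ran from 86.8 to 971 CPM in the members and from 4033 to 7874 in the others. Mgp (0.63) and Pdpn (0.47) were highest and Krtdap (-6.86) and Sema3e (-6.21) lowest.

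**Figure D4:**
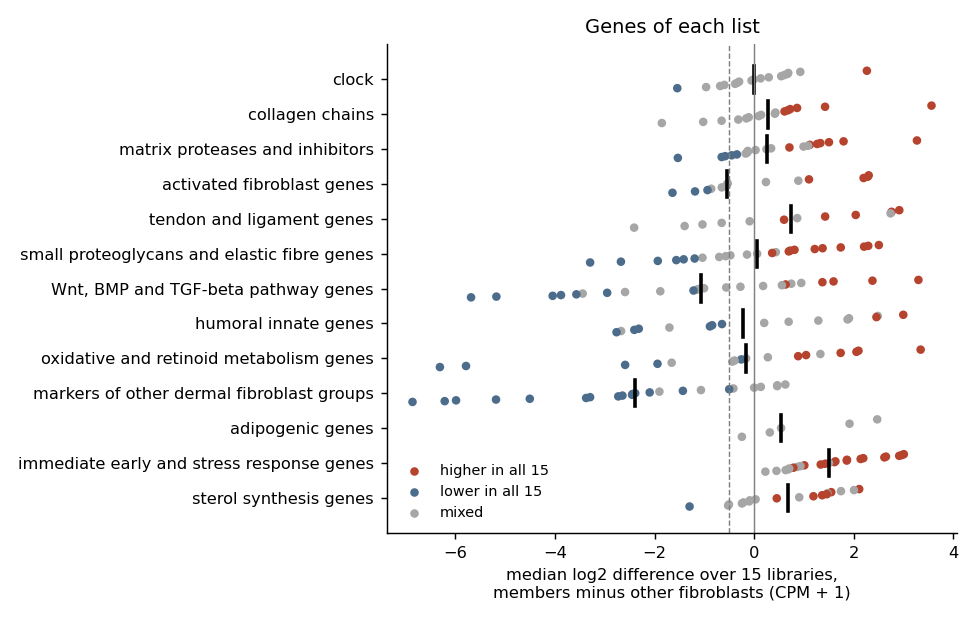
Median log2 difference of CPM + 1 over 15 libraries, members minus other fibroblasts (x), of each measured gene of each list (y); red is higher in all 15, blue lower in all 15, grey mixed, black bars are list medians and the dashed line is the median of all genes. The markers of other fibroblast groups lie left with a median of -2.39, the immediate early genes lie right with a median of 1.50, and most other lists spread on both sides. The immediate early and sterol synthesis lists were added after the values had been seen.

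Immediate early genes, which respond within minutes to stress and to tissue digestion, were mostly higher in the members. This list was added after the values had been seen. Of its 23 genes, 15 were higher in all libraries and none lower, with a median of 1.50. Of all genes 5.12% were higher and 27.6% lower, and the median was -0.50. Because of the late choice, these counts are a description. Csrnp1 (3.01), already named among the highest of all genes, and the NF-kappa-B inhibitor gene Tnfaip3 (2.97) were highest. Btg2 ran from 429 to 1354 CPM in the members and from 54.3 to 241 in the others. The heat shock genes Hspa1b (0.23) and Hspa1a (0.45) were lowest, with mixed signs. The median percent of mitochondrial UMIs per library ran from 1.99% to 2.95% in the members and from 1.90% to 2.59% in the others. Its median over the 18 libraries was 2.46% and 2.20%. All fibroblasts of a library passed the same digestion, and the part of digestion in the levels of the immediate early genes was not tested.

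The summed markers of melanocytes and pericytes were higher in the members in all 15 libraries. The 3 melanocyte markers summed to a median of 72.2 CPM (2.38 to 113) against 1.50 (0.833 to 3.70), with Mlana highest and Dct at 0. Without Tnmd, which chose the cells, the other 4 tenocyte markers (Scx, Mkx, Thbs4 and Fmod) summed to 20.4 CPM (4.42 to 446) against 15.8 (4.59 to 43.9) and were higher in the members in 9 of 15 libraries. Summed over 5 immune markers, without Ptprc, which the rule set to 0 in all fibroblasts, the members had a median of 13.3 CPM (7.63 to 21.4) and the others 14.2 CPM (7.86 to 24.2). Cd74 was the most abundant and Cd3e was at 0 in the members. The 5 endothelial markers summed to a median of 2.38 CPM (0 to 6.62) against 3.45 (1.99 to 5.82), with Pecam1 highest and Cdh5 and Cldn5 at 0. The 3 adipocyte markers were all at 0 in the members. The 4 keratinocyte markers summed to 22.1 CPM (14.1 to 31.5) against 31.8 (23.1 to 37.7), almost all Krt10, with Krt5 at 0. The 4 haemoglobin genes summed to 182 CPM (9.41 to 316) against 812 (60.6 to 1991), and the 5 muscle genes to 20.3 CPM (0 to 110) against 27.5 (3.93 to 249). The 4 Schwann cell markers summed to 5.70 CPM (0 to 23.2) against 2.33 (1.78 to 4.44), with S100b highest and Sox10 at 0. The 3 chondrocyte markers summed to 5.91 CPM (0 to 22.2) against 2.22 (0.815 to 7.82), all of it Sox9, with Acan and Col2a1 at 0. The 5 pericyte markers summed to 42.4 CPM (17.7 to 85.8) against 15.9 (10.5 to 28.9). Abcc9 and the potassium channel gene Kcnj8 were the most abundant of them, and Rgs5 and Myh11 were at 0. The part of other cell types in the levels of the members was not tested. Of the fibroblast markers, Dcn was at 12237 ± 803 CPM in the members and 13544 ± 1277 in the others, and Lum at 1708 ± 235 against 497 ± 91.8.

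Members chosen by Tnmd alone and by Cyp2f2 alone were compared within libraries. In the 6 libraries with at least 5 members of each kind, Ctsk was 0.71 higher (log2, median) in members with Tnmd alone than in those with Cyp2f2 alone, and higher in 5 of 6 libraries. Col15a1 differed by 0.31 and was higher in 4 of 6. Ndufa4l2 (1.04, from 0.08 to 7.17) and C1qtnf3 (1.08, from 0.04 to 4.84) were higher with Tnmd in 6 of 6 libraries, in some of them barely. Cthrc1, a gene of the rule, was also 1.07 higher with Tnmd, in 5 of 6 libraries. Pooled over libraries, Ctsk was at 3279 CPM in members with both transcripts, 3018 with Tnmd alone and 2146 with Cyp2f2 alone. Members with both were deepest, with a median of 36719 UMIs against 26840 and 27457. These values describe the choice of cells and were not tested.

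The circadian clock of cells is a feedback loop in which the activators Arntl (BMAL1) and Clock switch on the Per and Cry repressors. Nr1d1 and Nr1d2 (REV-ERBs) repress Arntl in turn, and Dbp, Tef and Hlf carry the rhythm to output genes. Zeitgeber time was not used to choose the cells, so rhythm was tested on the UMIs of members summed per library, with the same cosine and sine terms in edgeR. The 15 libraries left ZT18 with 1 mouse and ZT2 with 2. Of 6307 genes tested, 100 passed an adjusted p of 0.05, or 1.59%, and 892 had an unadjusted p under 0.05. In the other fibroblasts of the same libraries, 1216 of 12563 genes passed, or 9.68%. The members' UMIs were far fewer, and the counts are not compared. Leaving out 1 library at a time gave 53 to 112 genes in the members, with 66 without ZT6 replicate 2 and 73 without ZT10 replicate 3. Without the deepest fibroblasts, above the 95th percentile of UMIs of their library, 24 genes passed. This cut took a larger part of the members than of the other fibroblasts. Members fell from 27 to 22 in ZT2 replicate 1 and from 34 to 15 in ZT6 replicate 1, and the others from 384 to 368 and from 732 to 712. ZT10 replicate 3 and ZT14 replicate 1 kept 8 members each, under the 10 asked for in the fits, so depth and number of cells changed together.

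Most clock genes cycled in the members. Of 16 clock genes tested of a list of 19, 13 passed, against 15 of 18 in the other fibroblasts. Nr1d1 stood at 25.6 CPM ± 1.55 (SD, n = 2) at ZT2, 106 ± 30.6 (n = 3) at ZT6, 112 ± 23.0 (n = 3) at ZT10, 36.7 ± 26.9 (n = 3) at ZT14, 1.85 (n = 1) at ZT18 and 1.76 ± 1.25 (n = 3) at ZT22. Every library of ZT6 and ZT10 was above every library of the other times. The log2 amplitude, from mean to peak, was 3.19 ± 0.26 (SE) with a peak at ZT8.30 ± 0.31 h and an edgeR adjusted p of 9.56e-07. Arntl moved the opposite way, at 63.8 ± 2.91 CPM (n = 2) at ZT2, 12.0 ± 3.09 at ZT6, 4.28 ± 4.35 at ZT10, 3.43 ± 1.31 at ZT14, 27.7 (n = 1) at ZT18 and 77.5 ± 14.6 at ZT22. Its amplitude was 2.57 ± 0.33 with a peak at ZT23.4 ± 0.55 h (edgeR adjusted p 8.64e-07).

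Most other clock genes that passed had fitted peaks between ZT9.87 and ZT13.98, and the order of the peaks was not tested. Nr1d2 had an amplitude of 2.05 ± 0.13 and peaked at ZT9.87 ± 0.26 h (edgeR adjusted p 4.15e-07). Dbp rose from 8.76 ± 5.74 CPM at ZT2 to 153 ± 54.3 at ZT10 and stood at 3.57 ± 4.90 at ZT22, with an amplitude of 3.06 ± 0.36 and a peak at ZT10.1 (9.66e-07). Tef (1.40 ± 0.13, ZT11.6, 1.10e-05), Hlf (1.81 ± 0.30, ZT10.8, 0.000363) and Bhlhe41 (1.37 ± 0.18, ZT10.5, 0.000316) peaked close to it. Per3 peaked at ZT12.3 ± 0.36 h with an amplitude of 2.02 ± 0.17 (6.34e-06), and Per2 at ZT13.98 ± 0.76 h with 1.52 ± 0.30 (0.0124). Per1 had an amplitude of 0.64 ± 0.15 and a peak at ZT10.3 (edgeR adjusted p 0.0304), and Cry1 of 1.22 ± 0.30 and a peak at ZT19.4 (0.0422, and 0.0773 with the day of collection as a block, within 2.82e-06 to 0.159 over all alternatives). Per1 passed in 12 of 23 alternatives and Cry1 in 9 of 22. Clock (0.91 ± 0.18, ZT23.0, 0.00423) and Nfil3 (1.31 ± 0.26, ZT22.1, 0.00487) peaked with Arntl. Nfil3 lost its call without the deepest fibroblasts (edgeR adjusted p 0.202), and Clock with zeitgeber time as a factor (0.0586). Rora (edgeR adjusted p 0.209), Bhlhe40 (0.374) and Cry2 (0.751) did not pass, and Npas2 and Ciart were among those too low to test.

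**Figure D5:**
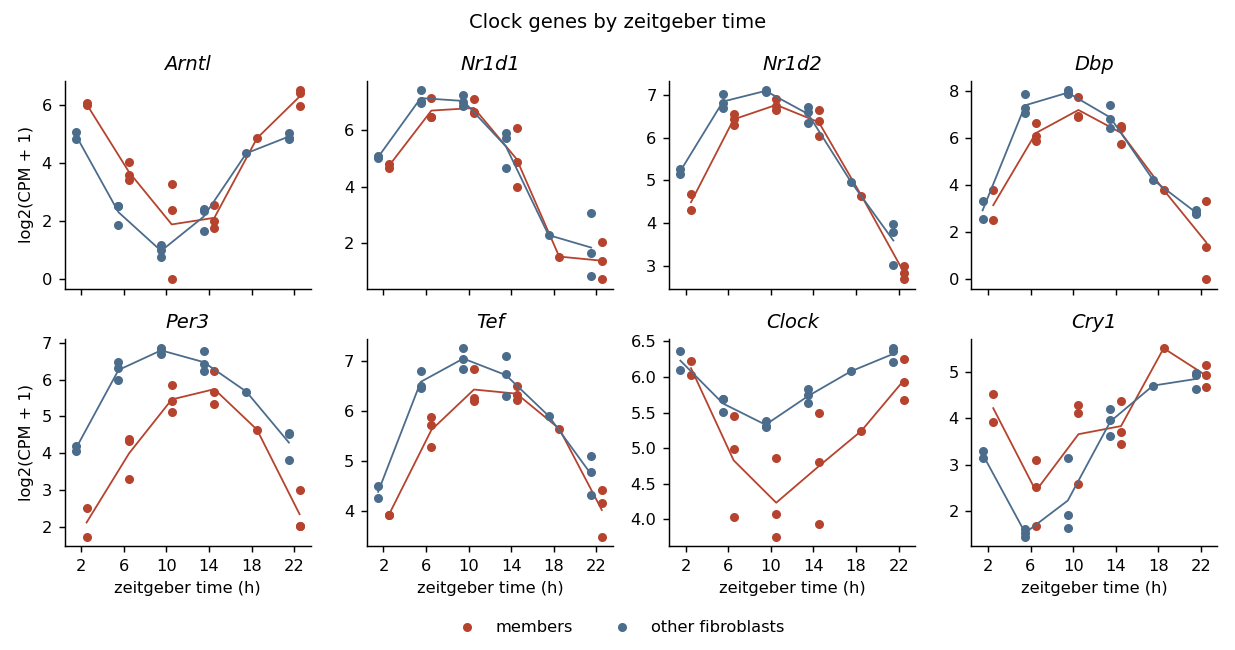
Log2(CPM + 1) of 8 clock genes (y) by zeitgeber time in h (x); red points are members and blue points other fibroblasts of the same 15 libraries, and lines join the means. Arntl and Clock are low at ZT10 in both groups of cells, and Per3 is lower in the members at every time.

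Promoter sequences (RefSeq, GRCm38.p6, the 250 bases before the annotated start) are shown for 3 of these genes that hold a match to a clock motif, each peaking at another time. A match in capitals is only a run of letters. The E-box CACGTG, the D-box TTATGTAA and the ROR element AGGTCA were searched on both strands. They do not overlap in these windows. Of all 32851 promoters in the table, 6.02% held the E-box, 0.819% the D-box and 14.02% the ROR element. Of 13 clock genes called, 12 had promoters there, and several had more than 1 start. The E-box was found for 4 (Per1, Cry1, Tef and Bhlhe41), the D-box for 1 (Per3) and the ROR element for 4 (Clock, Per1, Nr1d2 and Nfil3). The positions given are those of the whole windows of 250 bases. Bhlhe41 has an E-box within chr6:145865421-145865670 (minus strand), and Per3 has 2 D-boxes within chr4:151044666-151044915 (minus strand). Nfil3 has a ROR element on the opposite strand within chr13:52981040-52981289 (minus strand).
Bhlhe41: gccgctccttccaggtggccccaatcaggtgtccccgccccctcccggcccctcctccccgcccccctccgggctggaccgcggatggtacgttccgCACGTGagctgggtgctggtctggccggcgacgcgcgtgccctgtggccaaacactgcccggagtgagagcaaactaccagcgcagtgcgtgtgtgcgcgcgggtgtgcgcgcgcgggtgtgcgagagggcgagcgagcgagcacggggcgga
Per3: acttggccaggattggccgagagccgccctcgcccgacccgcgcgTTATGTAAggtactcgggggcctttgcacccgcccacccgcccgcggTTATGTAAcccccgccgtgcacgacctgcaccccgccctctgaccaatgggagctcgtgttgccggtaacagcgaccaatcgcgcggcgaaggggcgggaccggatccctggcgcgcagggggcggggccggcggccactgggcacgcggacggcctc
Nfil3: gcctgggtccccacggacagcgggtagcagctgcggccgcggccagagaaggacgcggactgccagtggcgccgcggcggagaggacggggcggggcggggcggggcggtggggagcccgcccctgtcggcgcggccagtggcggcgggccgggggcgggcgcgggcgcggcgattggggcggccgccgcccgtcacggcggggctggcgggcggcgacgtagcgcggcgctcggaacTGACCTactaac

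Outside the clock list, the 10 genes with the smallest p were Rnf144a, Tspan4, Peg3, Arhgap18, Pde3a, Slc6a6, Insig1, Sash1, Ccl8 and Sbsn. Rnf144a, a ubiquitin ligase gene, had an amplitude of 1.22 ± 0.12 and peaked at ZT1.26 (edgeR adjusted p 0.000112). Tspan4, a tetraspanin gene, peaked at ZT13.5 (1.10 ± 0.16, 0.000656), and the imprinted gene Peg3 at ZT1.05 (1.00 ± 0.17, 0.00119). The taurine transporter gene Slc6a6 peaked at ZT12.7 (1.61 ± 0.27, 0.00211), and Insig1, a brake on sterol synthesis, at ZT2.54 (0.97 ± 0.14, 0.00232). The chemokine gene Ccl8 peaked at ZT15.0 (1.02 ± 0.17, 0.00268) in a fit that lost its call in 3 of 23 alternatives. Sbsn had a fitted peak at ZT18.4 (1.24 ± 0.29, 0.00482), which rested on ZT18 replicate 3, the library at 108.9 CPM with 118 UMIs. At the other times its mean lay between 7.08 and 17.4 CPM, and without this library Sbsn was too low to be tested. The calls of Insig1, Arhgap18 and Sash1 were lost without the deepest fibroblasts (edgeR adjusted p 0.147, 0.115 and 0.115) and under no other alternative. Over all 100 genes, 33 peaked between ZT21 and ZT3, 21 between ZT3 and ZT9, 31 between ZT9 and ZT15 and 15 between ZT15 and ZT21.

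In each of the lists that follow, 0 to 2 genes passed, where 1.59% of all genes tested in the members did. Col12a1 (amplitude 1.98 ± 0.47, peak ZT14.3, edgeR adjusted p 0.00513) and Col6a6 (0.0304) passed among 15 collagen chains tested, and Fbn1 (0.0282, and 0.0577 with the day of collection as a block) and Fbn2 (0.0315, and 0.0570 with the block) among 23 proteoglycan and elastic fibre genes. Mmp11 passed among 21 proteases and inhibitors (0.0268), Thbs2 among 8 tendon genes (0.0304), Ccn2 among 12 activated fibroblast genes (2.72 ± 0.54, 0.00547) and Il33 among 16 humoral innate genes (0.0358). Ephx1 (0.00482) and Fmo1 (0.00504) passed among 13 metabolic genes, and Sbsn among 19 markers of other fibroblast groups. Il33 was at 259.7 CPM in ZT14 replicate 1 (109 UMIs) and at 19.6 and 7.52 CPM in the other ZT14 libraries, and its call was lost without ZT14 replicate 1 (edgeR adjusted p 0.0559). Col12a1 was at 164 and 292 CPM in ZT14 replicates 1 and 2 and at 22.6 CPM in replicate 3, and Ccn2 at 195 and 262 against 13.5 CPM. These same 2 libraries held the highest Thbs4 (167 and 304 CPM) and Cilp (801 and 1286 CPM) of the members, and the part of these genes' cells in the rhythm was not tested. Out of 23 alternatives, the call was kept in 22 for Col12a1, 21 for Ccn2, Ephx1 and Fmo1, 15 for Mmp11 and Fbn1, 13 for Col6a6, 12 for Thbs2, 11 for Il33 and 7 for Fbn2. None passed among 15 Wnt, BMP and TGF-beta genes, 4 adipogenic genes or 21 immediate early genes tested in the members. The marker genes outside the rule did not pass in the members, with edgeR adjusted p of 0.246 for Col15a1, 0.538 for Ctsk and 0.846 for Ptx3. The rhythm of the rule genes within the members is not given, because their counts chose the cells.

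Peak times in the members and the other fibroblasts lay close for most genes called in the members. Of the 100 genes called in the members, 64 were also called in the other fibroblasts (64% of the members' calls and 5.26% of the 1216 calls of the others). Of the 6303 genes tested in both, 803 were called in the other fibroblasts. Both groups of cells came from the same mice. For the 100 genes, chosen by their rhythm in the members, the median gap to the peak time in the other fibroblasts was 1.08 h, and it was within 4 h for 95. The log2 amplitude was higher in the members for 91 of these 100 genes. Choosing genes by their rhythm in the members favours high fitted amplitudes there, so this count is not read as a stronger rhythm. Nr1d1 peaked at ZT8.30 in the members and ZT8.37 in the others, with amplitudes of 3.19 and 3.20. Arntl peaked at ZT23.4 and ZT22.4, with amplitudes of 2.57 and 2.47. Per3 peaked at ZT12.3 and ZT11.0, with amplitudes of 2.02 and 1.43.

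The difference in rhythm was tested directly, with the library as a block and an interaction of cell group with the cosine and sine. Of 11310 genes, 2 passed (0.0177%), Dmkn (edgeR adjusted p 0.00723) and Vwc2 (0.0342), and 672 had an unadjusted p under 0.05. Both were too low in the members for a test of rhythm there (4.37 and 0.732 CPM, against 129 and 9.14 CPM in the other fibroblasts) and entered through the other fibroblasts, where neither passed (adjusted p 0.154 and 0.106). They are not read as a difference in rhythm. Both rested on ZT18 replicate 3. That library gave 67 of the 69 UMIs of Dmkn in members used in the fit, 64 of them in 1 cell, and 7 UMIs of Vwc2, 5 of them in 1 cell. Without it no gene passed. Krtdap (0.0661), F3 (0.214) and Per3 (0.224) came next and did not pass. Over the alternatives Dmkn passed in 17 of 21, Vwc2 in 7 of 20, Krtdap in 5 of 21, F3 in 2 of 21 and Per3 in 1 of 20, with every gene of at least 1 UMI tested (edgeR adjusted p 0.00901). No clock gene passed with the filter on low counts used here and all 15 libraries. Per3 was the clock gene whose level differed most downwards, at 25.8 against 64.4 CPM and lower in all 15 libraries (-1.54), while Bhlhe40 was higher in all 15 (2.26).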

How the data were processed

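Single-cell RNA-seq libraries of mouse dorsal dermis were made on the 10x platform, 1 per mouse. The deposited values are UMI counts per gene and barcode, which the authors made with Cell Ranger 3.1.0 on mm10, per the labels. Whether doublets were removed is not given in the sources used here, and no doublet caller was run. Leaving out the deepest 5% of the fibroblasts of each library was an alternative, and it took a larger part of the members than of the others. Cells, fibroblasts and members were taken by the rule in the report. The members and gene lists were chosen with earlier results of these data known. The immediate early and sterol synthesis lists were added after the values had been seen. UMIs were summed per library and cell group, and 15 libraries with at least 10 members entered the fits (3 were left out). Levels are CPM of these sums with a pseudocount of 1 CPM on the log2 scale. Rhythm was tested with edgeR 4.0.16 (R 4.3.3; filterByExpr, TMM, glmQLFit and glmQLFTest on a 24 h cosine and sine, Benjamini-Hochberg threshold 0.05), with DESeq2 1.42.0 as an alternative. JTK_Cycle was not repeated. The share was tested by permutation. Neighbours and clusters came from scanpy 1.11.5. Amplitudes and peaks were fitted to log2 CPM. On simulated data the test in the members recovered 97 of 100 genes with a log2 amplitude of 1 and 100 of 100 with 2, with 11 false calls among 6085 genes. The test of the difference in rhythm recovered 68 of 100 with an amplitude of 1 and 96 of 100 with 2, with 13 false calls among 10980 genes.

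Named genes were the rule and marker genes, the 15 highest and 10 lowest by median difference (at least 50 CPM in either group, the same sign in every library, no rule or mitochondrial genes), the clock list, the 10 smallest rhythm p outside it, the 5 smallest p of the difference, and from each list those that passed or its 2 highest and 2 lowest. Some genes that meet this rule are not reported here. The replicate number is the day of collection, per the labels, so it pairs libraries. To see whether libraries of the same day deviated together, the members' log2 CPM was taken minus the mean of the libraries of the same ZT. Between libraries of different ZT these deviations correlated by a median of 0.02 over 26 pairs of the same day (-0.35 to 0.22). For pairs of different days the median was -0.01 over 52 pairs. Depth sets the precision: members per library hold 227771 to 1839700 UMIs. Alternatives are given in the closing section.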

Additional observations from a re-analysis of the deposited data

Results flagged for a closer look

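The interaction of cell group with the 24 h terms passed for Dmkn (edgeR adjusted p 0.00723) and Vwc2 (0.0342). Neither is read as a difference in rhythm: both genes were too low in the members to be tested there, and neither had a rhythm that passed in the other fibroblasts (edgeR adjusted p 0.154 and 0.106). In both cases ZT18 replicate 3 held most of the members' UMIs, and without this library no gene passed. Dmkn had 67 UMIs in 4 member cells of that library and at most 1 UMI in any other library of the fit. The part of this 1 library in the difference is shown by these counts, and no other cause was tested.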

How the results depend on the processing

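The share of members and the rhythm of Cthrc1, Tnmd and Cyp2f2 over all fibroblasts did not pass the test under any alternative run. For the share, permutation p ran from 0.345 to 0.842 with 1 library left out, and was 0.276 without the deepest fibroblasts. With the day of collection as a replicate block, p was 0.491 for the share (permutation), adjusted p was 0.533, 0.845 and 0.487 (edgeR) for the 3 genes, 94 genes were rhythmic in the members (81 shared with the main 100) and 1160 in the other fibroblasts. Among the named genes the block ended the calls of Cry1 (0.0773), Fbn1 (0.0577) and Fbn2 (0.0570), and no other. With 1 library left out, calls were lost for Il33 (edgeR adjusted p up to 0.0924, without ZT6 replicate 1), Col6a6 (0.0979), Fbn1 (0.0717) and Idi1 (0.0771, all without ZT2 replicate 1), Thbs2 (0.0981, without ZT22 replicate 1), Mmp11 (0.0737) and Per1 (0.124, both without ZT22 replicate 2), Fbn2 (0.0821, without ZT10 replicate 1) and Cry1 (0.159, without ZT18 replicate 3), these being the libraries with the highest value.

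Counts of rhythmic genes depended more on the settings. In the members, DESeq2 called 201 (98 shared with edgeR), testing every gene with at least 1 UMI gave 540, libraries with at least 20 members 52, zeitgeber time as a factor 38, and leaving out fibroblasts above the 95th percentile of UMIs 24. With 1 library left out the count ran from 53 (without ZT22 replicate 2) to 112 (without ZT2 replicate 3). It was 58 without ZT2 replicate 1, 56 without ZT22 replicate 1, 64 without ZT18 replicate 3, and 66 without ZT6 replicate 2 and also without ZT14 replicate 3. In the other fibroblasts DESeq2 called 2022, libraries with at least 20 members gave 638, zeitgeber time as a factor 448, and single libraries left out 765 (without ZT14 replicate 3) to 1398. The difference in rhythm gave 11 genes by DESeq2 (0 shared with edgeR), 190 with every gene tested, 3 with at least 20 members and with other fibroblasts of like depth, 1 without the deepest fibroblasts, 0 with all libraries (678 at an unadjusted p under 0.05) and 0 to 3 with 1 library left out. The cause of these shifts was not tested.

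Levels kept their direction for every named gene that had 1 sign in all libraries. A pseudocount of 10 CPM left the counts at 502 higher and 2707 lower, and the median gene at -0.32. With it the log2 difference moved for 28 named levels and stayed the same for 222, so the size of the printed differences depends on the pseudocount. Without the deepest fibroblasts 325 genes were higher and 1293 lower in all libraries. With CPM computed without the 3 collagens, an alternative chosen after seeing the data, 695 were higher and 1631 lower. Leaving out 1 library gave 504 to 587 higher and 2717 to 3120 lower. The number of members limits the fits: 3 libraries had under 10 of them, and ZT18 rests on 1 mouse.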

Other observations

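Some genes of sterol synthesis had a 24 h rhythm in the members. This list was drawn up after Insig1, Fdps, Idi1 and Sc5d had been seen among the called genes, so its counts are a description. Of its 22 genes, 13 were tested in the members and 5 passed, where 1.59% of all genes did, among them Insig1 (edgeR adjusted p 0.00232, peak ZT2.54), Sc5d (0.00857, ZT0.298), Fdps (0.0116, ZT23.6) and Idi1 (0.0284, ZT1.83). Cyp51 (0.0581, ZT0.357), Sqle (0.0846, ZT1.57) and Hmgcs1 (0.0984, ZT1.12) did not pass. The calls held in 22 of 23 alternatives for Insig1, 23 for Sc5d, 21 for Fdps and 16 for Idi1. In the other fibroblasts 15 of 22 genes passed, where 9.68% of all genes did. Of the 18 genes at 5 CPM or more, 6 were higher in the members in all 15 libraries and 1 was lower, with a median log2 difference of 0.68.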
